A study of Homo sapiens with 12 samples.

Results

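The response of Viperin cells to insulin was measured by mRNA-seq, in 3 Viperin + Insulin libraries set against 3 Viperin libraries, 6 of the 12 libraries of the series. The cells were 12Z, an immortalized human epithelial line from endometriosis, which is tissue like the uterine lining that grows outside the uterus. Viperin cells were transfected with a pCAG plasmid that carries Viperin (RSAD2), and 24 h later went without serum for 4 h and then received 100 nM insulin or vehicle in serum-free medium for 24 h. Libraries were chosen by their labels alone, as pCAG Viperin with insulin or with vehicle. The other 6 libraries, 3 Control (pCAG empty vector with vehicle) and 3 Insulin (empty vector with 100 nM insulin), served to estimate the spread and as the reference for the same treatment without the Viperin plasmid. The transfection was transient and from 1 plasmid, so the model is a mixed population of a single line, and the methods describe the 3 libraries of a group as independent experiments.

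Insulin binds the insulin receptor and, at high doses, the IGF-1 receptor. The receptor substrates IRS1 and IRS2 then pass the signal to PI3K and AKT, which keep the FOXO transcription factors out of the nucleus and so lower the genes that FOXO activates. AKT also activates mTORC1, which promotes translation, ribosome production and, through the transcription factor ATF4, amino acid uptake and synthesis. Viperin is an interferon-induced enzyme of antiviral defence. The comparison asked which transcripts insulin changed when Viperin was overexpressed.

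Libraries held 27857401 to 46889002 read pairs assigned to genes in the 6 Viperin and Viperin + Insulin libraries. RSAD2, the transfected gene (ENSG00000134321.12), had 23783, 23721 and 10862 counts in the Viperin libraries and 18109, 15237 and 28665 counts in the Viperin + Insulin libraries, against 69 to 183 counts in the 6 libraries without the Viperin plasmid. The RSAD2 level was 547 ± 146 CPM (counts scaled to a common library size) in Viperin and 516 ± 80.8 CPM in Viperin + Insulin cells (mean ± SD, n = 3 each), and the groups overlapped (log2 fold change -0.09 ± 0.20, edgeR adjusted p = 0.919). Viperin library 3 stood apart, with the fewest RSAD2 counts and 12.1% of its reads mapped to more than 1 place against 9.44% to 10.99% in the other 5. The mitochondrial share of assigned pairs was 5.34%, 5.33% and 4.81% in Viperin and 4.28%, 4.42% and 4.52% in Viperin + Insulin libraries, so it was lower in every treated library. Library sizes without the mitochondrial genes and RSAD2 were among the alternatives. Any other part of the mitochondrial share in the results below was not tested.

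Insulin changed many transcripts in Viperin cells by small amounts. Of 23041 genes tested with edgeR, 256 (1.11%) were called at an adjusted p under 0.001, of which 94 were higher and 162 lower with insulin. The median log2 fold change was 0.24 for the genes called higher and −0.31 for those called lower, against 0.00 over all genes. Only 4 of the 256 moved by over 2-fold, and 1 of the higher and 16 of the lower genes by over 1.5-fold. In 255 of the 256, the 3 treated libraries all lay on one side of the 3 vehicle libraries, as they did in 4856 genes (21.1%) overall. Genes named below for the smallest p were taken only from those with groups apart. Where it is mentioned for a called gene, this separation describes the values and adds no support. The count was 137 without Viperin + Insulin library 1, 147 without Viperin library 2, 160 and 155 without Viperin + Insulin libraries 2 and 3, and 393 and 420 without Control libraries 1 and 3, and it was 205 without Viperin library 3, 183 of them among the 256. A core of 109 genes, 36 higher and 73 lower, passed whichever of the 12 libraries was left out, and each of the 256 kept its direction under the 23 alternatives.

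Among the genes that rose with the smallest p was PSAT1, an enzyme of serine synthesis (ENSG00000135069.14, hg38 chromosome 9, 78297125 to 78330093), which measured 103, 97.1 and 101 CPM in the Viperin libraries and 136, 128 and 136 CPM in the Viperin + Insulin libraries. It was 32.9% higher with insulin (log2 fold change 0.41 ± 0.04, adjusted p = 1.67e-11), with every treated library above every vehicle library. ATP1B1, the beta subunit of the sodium-potassium pump, measured 97.5, 94.5 and 93.5 CPM in the Viperin libraries and 127, 117 and 127 CPM in the Viperin + Insulin libraries (log2 fold change 0.38 ± 0.04, adjusted p = 6.14e-10). RAB17, a small GTPase of vesicle traffic in epithelia, rose from 16.8 ± 1.99 to 24.2 ± 0.561 CPM (log2 fold change 0.53 ± 0.07, adjusted p = 5.91e-08). RCAN1, an inhibitor of calcineurin, and the histone gene H2AC6 rose by 0.38 and 0.34 on the log2 scale. The groups were apart in all of these genes, which the choice of genes by smallest p required. The largest rise was that of GNA14, a G protein alpha subunit, from 1.13 ± 0.0633 to 2.25 ± 0.402 CPM (log2 fold change 0.97 ± 0.20, adjusted p = 0.000543). At this low level the adjusted p was 0.0142 without Viperin + Insulin library 3 and 0.00682 without Viperin library 1 or 2.

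Among the genes that fell with the smallest p was HDAC5, a histone deacetylase, which measured 58.2, 58.5 and 56.7 CPM in the Viperin libraries and 42.9, 45.4 and 39.4 CPM in the Viperin + Insulin libraries (log2 fold change -0.45 ± 0.05, adjusted p = 5.18e-10). MEGF6, a secreted protein with EGF-like repeats, measured 12.7, 14.6 and 14.1 CPM in the Viperin libraries and 7.96, 7.98 and 6.94 CPM in the Viperin + Insulin libraries (log2 fold change -0.85 ± 0.09, adjusted p = 4.37e-10). Every treated library lay below every vehicle library for both, which the choice of genes by smallest p required. CYBRD1, an iron reductase, fell by 20.6%, from 274 ± 4.98 to 217 ± 6.06 CPM (adjusted p = 6.44e-10). ABLIM3 and PDLIM5, proteins of the actin cytoskeleton, fell by 0.35 and 0.28 on the log2 scale. The 4 genes that moved by over 2-fold all fell. CYSLTR2 and ALOX15 are described below, and the other 2, named after their values were seen, were ABCA6, an ABC transporter (-1.43 ± 0.33), and an unnamed lncRNA (ENSG00000267904.1, -1.04 ± 0.20). ABCA6 had 8 to 48 counts in a library, and ABCA6 and ENSG00000267904.1 kept their calls in only 6 and 3 of the 12 fits that leave out 1 library. Next in size were ZNF704, a zinc finger gene (-0.94 ± 0.14), MEGF6, YPEL1 (below) and STON1, an adaptor of endocytosis (-0.77 ± 0.10), all of which kept their calls in each of the 12. STON1 overlaps a readthrough gene on the same strand, and read pairs in shared exons are given to neither, so its level is uncertain.

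**Figure D1:**
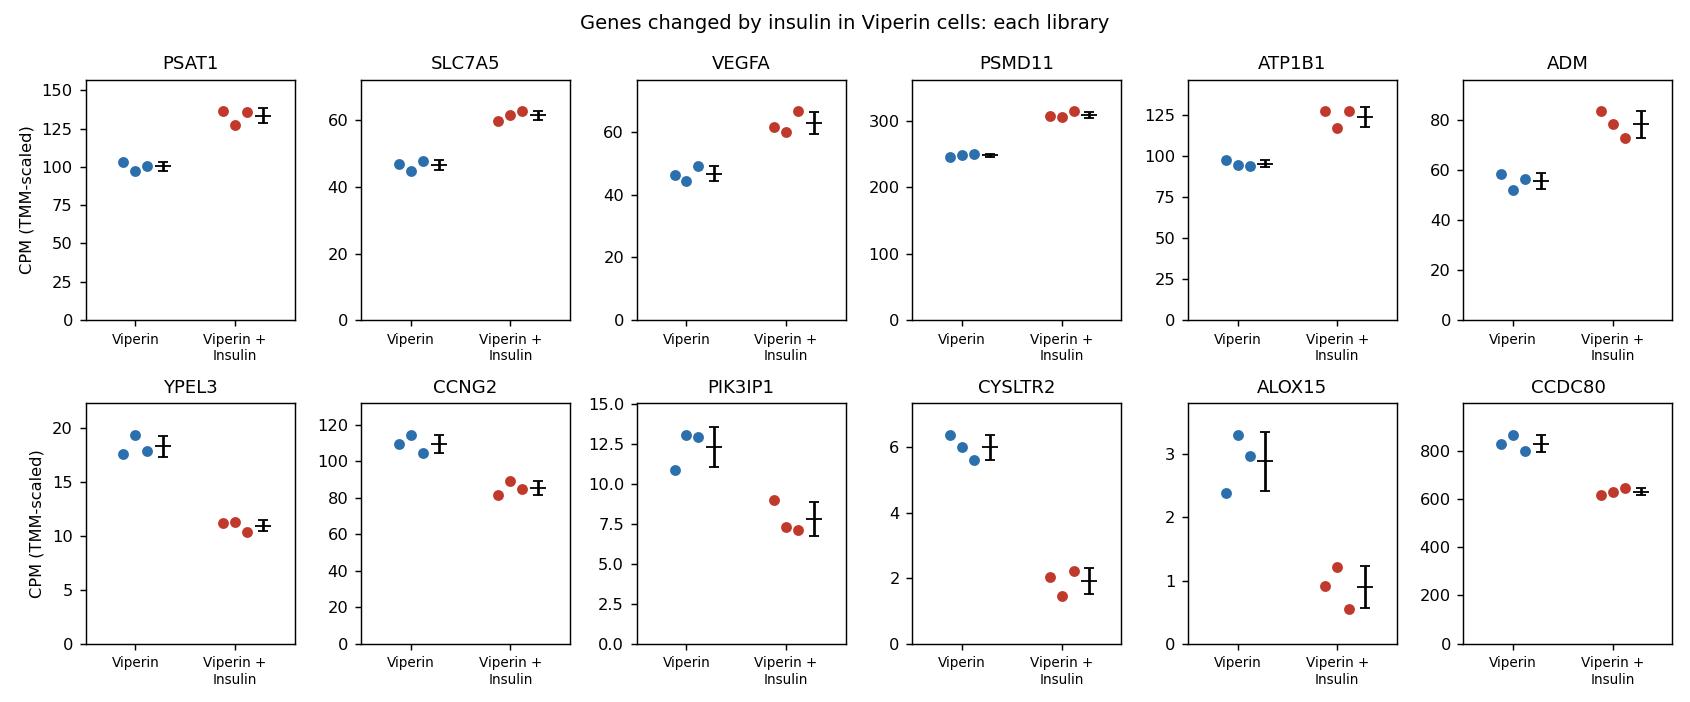
CPM of 12 genes in each of the 3 Viperin (blue) and 3 Viperin + Insulin (red) libraries, with the mean ± SD (n = 3) as a black bar beside the points and each vertical axis starting at 0. The upper 6 genes were higher and the lower 6 lower in every treated library, from a log2 fold change of 0.49 for ADM to -1.67 for ALOX15.

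Lists of genes of known pathways were then counted at an adjusted p under 0.05, at which 499 genes (2.17%) were higher and 551 (2.39%) lower over the whole table. The lists with the highest shares of members that fell were the FOXO genes, with 20 of 43, and the quiescence genes, with 11 of 34. Both lists hold YPEL3, CCNG2, HBP1 and TXNIP. The FOXO list also shares INSR and IRS2 with the receptor list, and PIK3IP1 and RICTOR with the PI3K list. VEGFA and DDIT4 are in both the ATF4 and the HIF list, so the counts of such lists are not separate results. Proteasome subunits (17 of 37), ribosome biogenesis factors (24 of 55) and cytosolic aminoacyl-tRNA synthetases with their scaffold proteins (8 of 23) had the highest shares that rose, and none of their members fell. Ribosomal proteins (2 higher and 3 lower of 77), interferon-stimulated genes (1 and 3 of 63) and cholesterol genes (0 and 1 of 33) were near the shares over all genes.

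**Figure D2:**
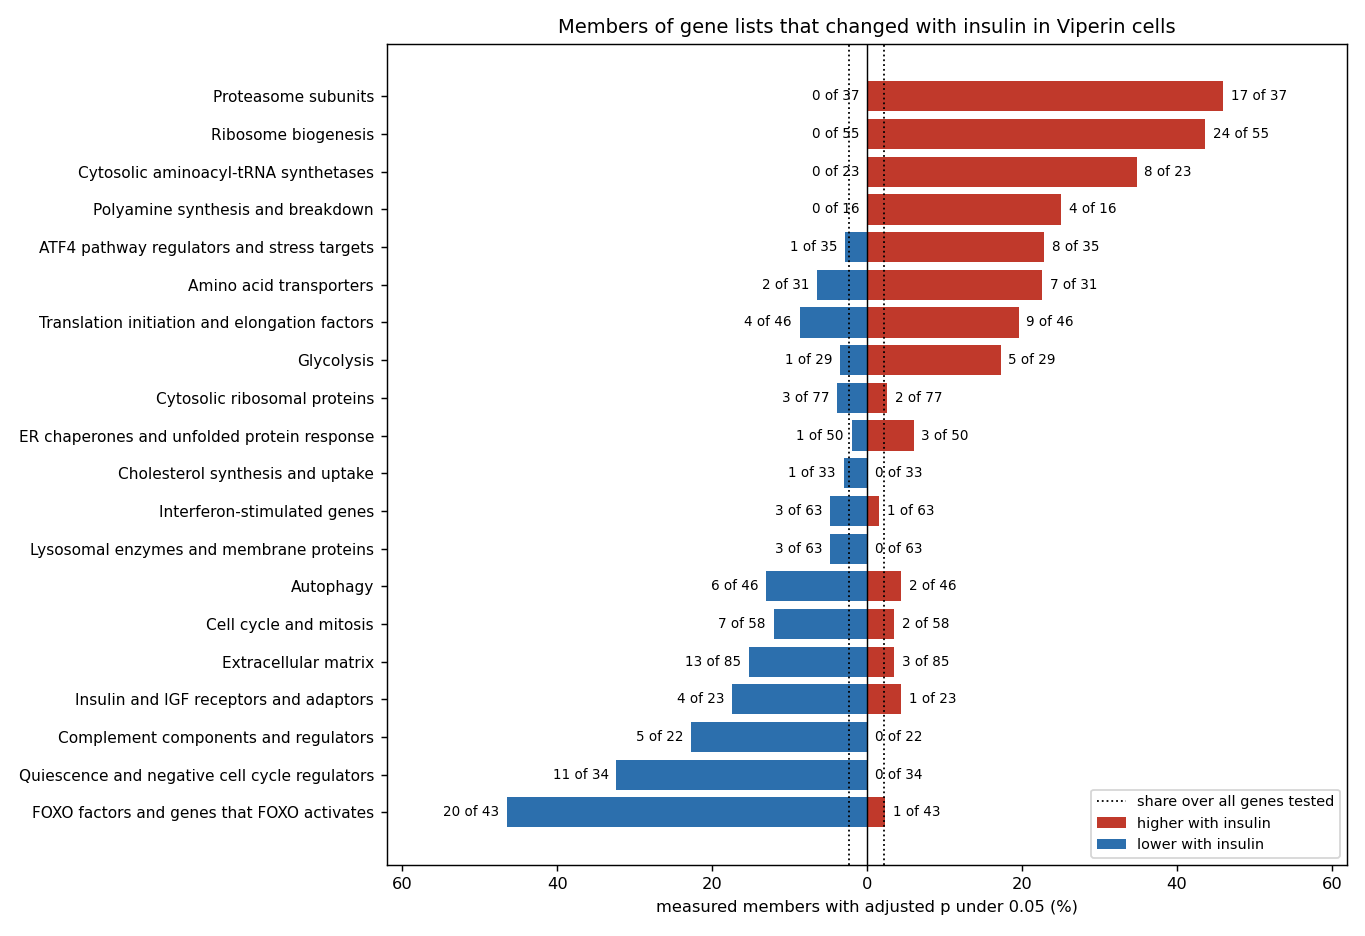
Share of the measured members of 20 gene lists with an adjusted p under 0.05 in Viperin cells, with members higher with insulin to the right (red) and lower to the left (blue) and the numbers beside each bar. Dotted lines mark the shares over all 23041 genes (2.17% higher, 2.39% lower), and the bars reach 17 of 37 for proteasome subunits and 20 of 43 for FOXO genes. Some genes are members of several lists.

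Genes that FOXO activates included many that fell in the insulin-treated Viperin cells. Of 43 measured members, 20 fell, 1 rose and 22 did not pass, and the list's median log2 fold change was −0.17. YPEL3, a growth-suppressing gene (ENSG00000090238.12, chromosome 16, 30092314 to 30096915, minus strand), measured 17.6, 19.4 and 17.9 CPM in the Viperin libraries and 11.2, 11.3 and 10.4 CPM in the Viperin + Insulin libraries. It fell by 40.1% (log2 fold change -0.74 ± 0.08, adjusted p = 5.42e-11), with the groups well apart. PIK3IP1, an inhibitor of PI3K, measured 10.9, 13.1 and 12.95 CPM in the Viperin libraries and 9.01, 7.28 and 7.09 CPM in the Viperin + Insulin libraries (log2 fold change -0.65 ± 0.09, adjusted p = 8.86e-07). CCNG2, an unusual cyclin that restrains the cell cycle, measured 109, 115 and 105 CPM in the Viperin libraries and 81.3, 89.2 and 84.97 CPM in the Viperin + Insulin libraries (log2 fold change -0.36 ± 0.04, adjusted p = 8.86e-10). All treated libraries again lay below all vehicle libraries for both genes. FBXO32, a ubiquitin ligase of muscle wasting (-0.52 ± 0.08), MXI1, a MYC antagonist (-0.38 ± 0.05), CREBRF, a regulator of CREB3 (-0.38 ± 0.05), TP53INP1, a stress-induced gene of autophagy (-0.34 ± 0.05), and the receptor gene ERBB3 (-0.32 ± 0.07) also fell, in log2 units. GADD45A, a growth arrest gene, was the exception that rose (0.26, adjusted p = 0.00997), and no member rose without Viperin library 1 or 2 or Viperin + Insulin library 1.

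Of the FOXO genes themselves, FOXO4 fell by 12.3% (adjusted p = 0.0392), while FOXO1 stood at 5.46 ± 0.458 and 4.798 ± 0.564 CPM (adjusted p = 0.473) and FOXO3 at 67.97 ± 0.716 and 68.9 ± 1.14 CPM (adjusted p = 0.913), with overlapping groups. Without Viperin + Insulin library 2, 13 in place of 20 members fell. Members that passed whichever library was left out numbered 11: YPEL3, PIK3IP1, FBXO32, MXI1, CREBRF, CCNG2, TP53INP1, INSR, ERBB3, SEMA3C and IRS2. In Control cells, whose libraries are not shared, 21 members fell and none rose (of all genes there, 2.96% fell and 2.53% rose).

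The FOXO recognition motif was looked for in RefSeq promoters (GRCh38.p14, 250 bases before to 50 after the start of a gene) as GTAAACA on either strand. It stood in 3.41% of all 27305 promoters, in 6 of the 39 measured FOXO genes with a promoter in the table, and in 5 of the 17 that passed the test. The stretches around those 5 matches, and that of the quiescence gene BTG1, are shown 5′ to 3′ on the gene's strand to let the letters be compared between genes, with the motif in capitals (in BTG1 as its reverse complement).
YPEL3: ctgggctcggtGTAAACAagtccaggcgcc
HBP1: catcttctccaGTAAACAcaacacaaaagt
BCL2L11: gagttactccgGTAAACAcgccagggacgg
TXNIP: tcgggctcctgGTAAACAaggaccgggcag
FOXO4: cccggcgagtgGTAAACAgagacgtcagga
BTG1: ccgggtttattTGTTTACaagcggattacg
They lie at chr16:30096195-30096224 (minus strand), chr7:107168819-107168848 (plus), chr2:111120680-111120709 (plus), chr1:145996685-145996714 (minus), chrX:71095863-71095892 (plus) and chr12:92146037-92146066 (minus). Of these genes, HBP1, a repressor of cell cycle genes, fell by 14.3% (adjusted p = 0.00433), BCL2L11, which promotes apoptosis, by 13.3% (adjusted p = 0.00721), and TXNIP, an inhibitor of glucose uptake, by 23.3% (adjusted p = 0.0251). A match is a description of the letters only, since no binding was measured.

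Of the genes of quiescence and restraint of the cell cycle, 11 of 34 fell and none rose (median −0.10). Besides YPEL3, its relatives YPEL1 and YPEL2 fell by 42.7% (adjusted p = 9.94e-08) and 28.3% (adjusted p = 0.000755). YPEL1 measured 7.65, 8.13 and 8.32 CPM in the Viperin libraries and 4.65, 4.61 and 4.54 CPM in the Viperin + Insulin libraries. BTG1, an antiproliferative gene, measured 37.8, 38.7 and 34.9 CPM in the Viperin libraries and 29.5, 29.8 and 28.7 CPM in the Viperin + Insulin libraries (log2 fold change -0.34 ± 0.06, adjusted p = 8.24e-06). In both genes the groups were apart. GAS1, named for its rise in growth arrest, fell by 0.51 ± 0.08 on the log2 scale. Without Viperin + Insulin library 2, 7 in place of 11 members fell, and YPEL1, YPEL2, YPEL3, CCNG2, BTG1 and GAS1 were the 6 that passed whichever library was left out. In Control cells 8 members fell and none rose.

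Of 58 cell cycle and mitosis genes, 2 rose and 7 fell. CCND1, the cyclin that starts the cycle after growth signals, rose from 97.7 ± 2.21 to 111 ± 2.15 CPM (adjusted p = 0.00163), and CDC20, an activator of mitotic exit, rose by 0.14 on the log2 scale. The 7 that fell were genes of DNA replication and the S phase, CDT1 (-0.26), CCNE2 (-0.25), MCM5 (-0.16), MCM6 (-0.15), MCM7 (-0.11) and E2F1 (-0.14), and the chromatin protein HMGB2 (-0.16). Without Viperin + Insulin library 3, 4 fell. The 2 that rose became 4 without Control library 1, 5 without Control library 3 or with only the groups compared, and 1 without Viperin library 1 or Viperin + Insulin library 2. In Control cells 4 rose and 4 fell.

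The insulin receptor, the IGF-1 receptor and the substrate IRS2 were lower after 24 h of insulin. INSR, the insulin receptor, measured 26.2, 29.00 and 30.97 CPM in the Viperin libraries and 23.5, 23.7 and 21.2 CPM in the Viperin + Insulin libraries (log2 fold change -0.33 ± 0.07, adjusted p = 0.00038). IGF1R measured 119, 111 and 112 CPM in the Viperin libraries and 95.03, 97.8 and 98.4 CPM in the Viperin + Insulin libraries (log2 fold change -0.23 ± 0.04, adjusted p = 5.24e-05). IRS2 measured 49.3, 48.5 and 48.2 CPM in the Viperin libraries and 41.04, 39.1 and 40.2 CPM in the Viperin + Insulin libraries (log2 fold change -0.28 ± 0.05, adjusted p = 5.36e-05). The groups did not overlap in any of these 3 genes. IRS1 stood at 38.3 ± 2.26 and 36.5 ± 1.95 CPM and did not pass (adjusted p = 0.65). In all, 4 of 23 receptor and adaptor genes fell and 1 rose, SOCS2, a feedback inhibitor of cytokine signalling (0.30, adjusted p = 0.0378), which no longer passed without any one of Viperin + Insulin libraries 1, 2 and 3 or Viperin libraries 1 and 2 (adjusted p 0.0841 to 0.263). SOS2, the fourth that fell (-0.17, adjusted p = 0.0148), was lost without Viperin library 1 or 2 or Viperin + Insulin library 1 or 2 (adjusted p 0.0519 to 0.0715). Among 45 PI3K, AKT and mTOR components, only PIK3R3, a regulatory subunit of PI3K, rose (0.31 ± 0.05), and PIK3IP1, CASTOR2 (-0.24 ± 0.05) and RICTOR, a subunit of mTORC2 (-0.16, adjusted p = 0.0251), fell. RICTOR lost its call without Viperin library 1 or 2 or Viperin + Insulin library 1 or 2 (adjusted p 0.053 to 0.285), and with DESeq2 without independent filtering (adjusted p = 0.0674). PIK3R3 overlaps another annotated gene on its strand.

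Genes of both chains of an amino acid transporter rose. SLC7A5 and SLC3A2 code for the light and heavy chain of the transporter of large neutral amino acids. SLC7A5 measured 47.02, 44.9 and 47.9 CPM in the Viperin libraries and 59.9, 61.8 and 62.8 CPM in the Viperin + Insulin libraries (log2 fold change 0.40 ± 0.04, adjusted p = 6.71e-10). SLC3A2 measured 122, 120.1 and 125 CPM in the Viperin libraries and 148, 157 and 156 CPM in the Viperin + Insulin libraries (log2 fold change 0.33 ± 0.04, adjusted p = 1.62e-07). Both were higher in every treated library. SLC38A4, a neutral amino acid carrier, rose by 0.38 ± 0.08, SLC25A22, a mitochondrial glutamate carrier, by 0.25 ± 0.06, and SLC6A9, a glycine transporter, by 0.23 ± 0.05 on the log2 scale. In all, 7 of 31 amino acid transporters rose and 2 fell (SLC43A1 at -0.40 and SLC7A2 at -0.24), and 4 rose without Viperin library 2, among whose losses was SLC25A22 (adjusted p 0.105). Without Viperin library 2 or 3, or without any one of the 3 Viperin + Insulin libraries, 1 fell in place of 2, and SLC43A1 was the gene lost without Viperin library 2 (adjusted p = 0.0646) and Viperin + Insulin library 3 (adjusted p = 0.0777).

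ATF4 itself measured 145, 141 and 157 CPM in the Viperin libraries and 171, 161 and 169 CPM in the Viperin + Insulin libraries (log2 fold change 0.18 ± 0.04, adjusted p = 0.000937), and every treated library was above every vehicle library. It lost the call at 0.001 without any one of the 3 Viperin + Insulin, the 3 Insulin or the first 2 Viperin libraries (adjusted p 0.00106 to 0.0308), and stayed under 0.05 each time. Of 35 ATF4 pathway genes, 8 rose and 1 fell (median 0.12). DDIT4, an inhibitor of mTORC1, measured 41.4, 41.6 and 39.2 CPM in the Viperin libraries and 51.5, 54.3 and 51.3 CPM in the Viperin + Insulin libraries (log2 fold change 0.36 ± 0.05, adjusted p = 3.81e-07). CTH, which makes cysteine from cystathionine, rose by 0.28 ± 0.06, XPOT, the tRNA export factor, by 0.17 ± 0.04 and PPP1R15B, a phosphatase subunit that restores translation, by 0.16 ± 0.05. KLHL24, a ubiquitin ligase adaptor, was the member that fell, from 59.4 ± 3.71 to 47.1 ± 0.253 CPM (adjusted p = 4.6e-07). Without Viperin + Insulin library 1 or 2, or Insulin library 3, 5 members rose. In serine synthesis and one-carbon metabolism 3 of 28 rose and 1 fell: beside PSAT1, SHMT2, the mitochondrial serine hydroxymethyltransferase, rose by 0.17 ± 0.04, and PHGDH, the first enzyme of serine synthesis, stood at 161 ± 6.05 and 162 ± 1.62 CPM (adjusted p = 0.952). None of the list fell without Viperin library 1 or 2 or Viperin + Insulin library 2.

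Of the enzymes that charge tRNAs, listed together with the scaffold proteins of their complex, 8 of 23 members rose and none fell, with a median of 0.11. YARS1, for tyrosine, rose by 0.25 ± 0.04, AIMP2, a scaffold of the synthetase complex, by 0.24 ± 0.05, and GARS1, for glycine, by 0.19 ± 0.04. MARS1, for methionine, measured 159, 152 and 158 CPM in the Viperin libraries and 177, 179 and 188 CPM in the Viperin + Insulin libraries (log2 fold change 0.22 ± 0.04, adjusted p = 3.08e-05). TARS1, for threonine, measured 311, 299 and 291 CPM in the Viperin libraries and 343, 327 and 336 CPM in the Viperin + Insulin libraries (log2 fold change 0.16 ± 0.04, adjusted p = 0.00205). The groups were apart in both, but TARS1 missed the threshold without Viperin + Insulin library 1 (adjusted p = 0.0551), and 5 members rose without Viperin + Insulin library 1 or 2. The response in Control cells counted 7 members higher, AIMP2 among them, and none lower.

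ATF4 binds the CCAAT-enhancer-binding protein and ATF response element, searched here as TGATGNAAN on either strand. It stood in 3.67% of all promoters, in 6 of 19 measured genes of the synthetase list with a promoter in the table (2 of the 7 that passed), and in 4 of 29 ATF4 pathway genes (1 of the 8 that passed). The 3 stretches from genes that passed are shown for comparison with each other, with the motif in capitals, read in MARS1 and TARS1 as its reverse complement.
MARS1: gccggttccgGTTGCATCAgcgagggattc
TARS1: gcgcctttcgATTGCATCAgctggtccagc
PPP1R15B: ccgccccggcTGATGCAACctcacgctgcc
They lie at chr12:57488053-57488082 (plus strand), chr5:33440956-33440985 (plus) and chr1:204412025-204412054 (minus). In MARS1 the motif spans the annotated start itself, from base −5 to base 4.

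Ribosome biogenesis was the list with the most members that rose, 24 of 55 with none lower and a median log2 fold change of 0.13. EBNA1BP2, a factor of ribosomal RNA processing, measured 114, 108 and 114 CPM in the Viperin libraries and 131, 131 and 131 CPM in the Viperin + Insulin libraries (log2 fold change 0.23 ± 0.04, adjusted p = 1.51e-05). DDX21, an RNA helicase of the nucleolus, rose by 0.18 ± 0.04, POLR1A, the largest subunit of RNA polymerase I, by 0.18 ± 0.04, and NOP56, a protein of box C/D snoRNA particles, by 0.19 ± 0.04. TSR1 and LTV1, factors of the small subunit, rose by 0.22 ± 0.04 and 0.32 ± 0.07, though LTV1 overlaps other annotated genes on its strand. Single libraries moved the count, and 15, 14 and 13 members rose without Viperin library 1, Viperin library 2 and Viperin + Insulin library 1, and 8 passed whichever library was left out. In Control cells 26 rose and none fell.

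MYC and its relatives bind the E-box CACGTG, which reads the same on both strands. It was in 7.43% of all promoters, in 20 of 47 measured ribosome biogenesis genes with a promoter in the table and in 11 of the 20 that passed, against 2 of 32 measured proteasome genes and 0 of the 17 that passed. The stretches of 4 of the 11 are shown with the E-box in capitals.
EBNA1BP2: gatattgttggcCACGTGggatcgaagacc
MRTO4: cgtcttccgccgCACGTGgattcagcgcga
RRP9: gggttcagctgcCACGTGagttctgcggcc
WDR43: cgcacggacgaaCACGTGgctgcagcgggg
They lie at chr1:43172790-43172819 (minus strand), chr1:19251807-19251836 (plus), chr3:51941892-51941921 (minus) and chr2:28894658-28894687 (plus), and their genes rose by 0.23, 0.19, 0.25 and 0.18 on the log2 scale. MYC itself measured 36.4, 36.7 and 36.8 CPM in the Viperin libraries and 34.1, 34.97 and 33.1 CPM in the Viperin + Insulin libraries, slightly lower in each treated library but not past the test (log2 fold change -0.11 ± 0.05, adjusted p = 0.317).

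Of the ribosomal proteins 2 of 77 rose and 3 fell (6 without Control library 3), with a median of 0.00. RPL3 (-0.15 ± 0.03), RPL13A (-0.14 ± 0.03) and RPL22 (-0.20 ± 0.04) fell. RPL26 stood out as higher, from 21.98 ± 1.03 to 29.9 ± 3.01 CPM (log2 fold change 0.45 ± 0.06), but it overlaps a readthrough gene on the same strand, so its level is uncertain. RPS26 rose by 0.15 and lost the call without Viperin library 2 or 3 or Viperin + Insulin library 1 or 3 (adjusted p 0.0536 to 0.148). Of 46 translation factors 9 rose and 4 fell, and 4, 5 and 5 rose without Viperin library 2 and Viperin + Insulin libraries 1 and 3. GSPT1 (0.20 ± 0.04) and ETF1 (0.15 ± 0.04), which end translation, rose. EEF1A1 (-0.16 ± 0.03) and EEF2 (-0.17 ± 0.03), the elongation factors, EIF4B (-0.20 ± 0.04) and PDCD4, an inhibitor of initiation (-0.27 ± 0.05), fell.

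**Figure D3:**
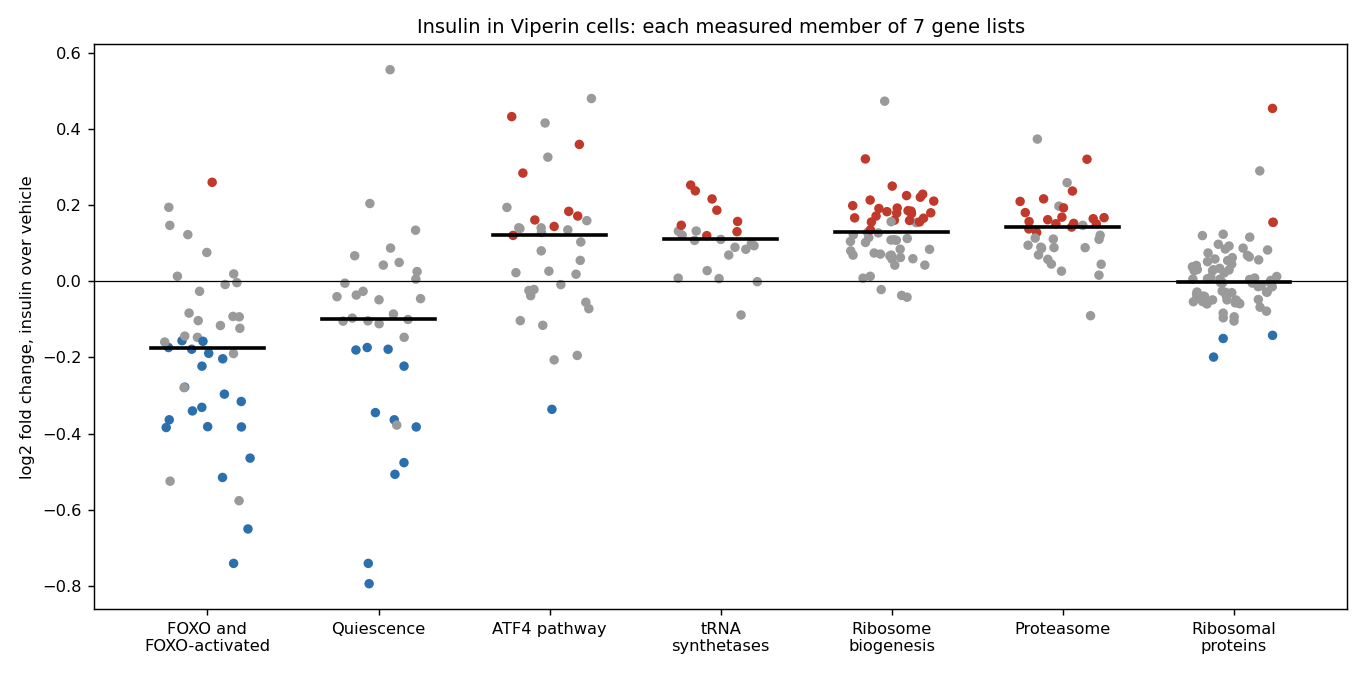
Log2 fold change with insulin in Viperin cells for each measured member of 7 gene lists (red higher, blue lower at an adjusted p under 0.05, grey not passed), with black bars at the list medians and horizontal scatter for legibility only. The medians run from −0.17 for the FOXO genes to 0.14 for the proteasome, and that of the ribosomal proteins is 0.00.

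Of the proteasome subunits, 17 of 37 rose and none fell, with a median of 0.14. PSMD11, a lid subunit of the regulatory particle, measured 245, 249.7 and 250.1 CPM in the Viperin libraries and 308, 307 and 315 CPM in the Viperin + Insulin libraries (log2 fold change 0.32 ± 0.04, adjusted p = 6.14e-10). PSMA3, of the catalytic core, measured 129, 131 and 136 CPM in the Viperin libraries and 159, 151 and 149 CPM in the Viperin + Insulin libraries (log2 fold change 0.22 ± 0.04, adjusted p = 8.29e-05). PSMD3 and PSMD14, a lid subunit and the lid's deubiquitinase, rose by 0.24 ± 0.04 and 0.19 ± 0.04. In PSMD11 and PSMA3 every treated library was above every vehicle library. Leaving out any one library did not move the count by over 1.5 times, and 7 of the 17 passed each time. In Control cells 21 rose and none fell. Of 50 genes of ER chaperones and the unfolded protein response, 3 rose and 1 fell, namely HSPA5, the main ER chaperone (0.19 ± 0.04), its co-chaperone DNAJB11 (0.23 ± 0.05), HYOU1 (0.16 ± 0.04) and, lower, OS9 (-0.13), of ER-associated degradation, which missed the threshold without Viperin library 2 or Viperin + Insulin library 1 or 3 (adjusted p 0.0975 to 0.155).

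Central metabolism changed at a few steps. ODC1, the first enzyme of polyamine synthesis, measured 101, 107 and 104 CPM in the Viperin libraries and 129, 129 and 125 CPM in the Viperin + Insulin libraries (log2 fold change 0.30 ± 0.04, adjusted p = 1.62e-07), with the groups apart. SRM, the spermidine synthase, rose by 0.20 ± 0.04, and 4 of 16 polyamine genes rose with none lower (2 without Viperin library 2 or Viperin + Insulin library 1). In purine and pyrimidine synthesis 5 of 37 rose and 1 fell, with CTPS1, which makes CTP, at 0.19 ± 0.04 and PRPS1, which makes the ribose phosphate donor, at 0.18 ± 0.04; 3 rose without Viperin library 2, none fell without Viperin library 1 or Viperin + Insulin library 2, and 2 or 3 fell without Control library 1 or 3 or Viperin library 3. NME1, a nucleoside diphosphate kinase, had the largest rise of the list (0.47 ± 0.07) but overlaps the readthrough NME1-NME2. In glycolysis 5 of 29 rose and 1 fell. HK2 and HK1, which trap glucose in the cell, rose by 0.31 ± 0.05 and 0.18 ± 0.04, SLC2A1, the glucose transporter, by 0.17 ± 0.04, and LDHA by 0.12 ± 0.04, while PDK2, which inhibits pyruvate dehydrogenase, fell (-0.29 ± 0.05). The glycolysis count was 2 or 3 without any one of Viperin libraries 1, 2 and 3 or Viperin + Insulin libraries 1 and 3, and HK2 and HK1 passed each time. ALDOA, the fifth, stood at 6.14 ± 0.971 CPM and overlaps another annotated gene on its strand, with shared reads given to neither, so its rise is uncertain.

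Genes of lipid synthesis were near background, with 0 of 33 cholesterol genes higher and 1 lower, TM7SF2, a sterol reductase (-0.27 ± 0.04), which overlaps a neighbour on its strand. The cholesterol list had 1 higher without Control library 2 and 2 lower without Control library 3 or Viperin library 1. Of 30 fatty acid synthesis genes 1 rose and 2 fell, all by under 0.20 on the log2 scale. None of these rose without Viperin library 1 or 2 or Viperin + Insulin library 1 or 3, and 1 fell without any one of the 3 Viperin libraries or Viperin + Insulin library 2. SREBF1, a main transcription factor of lipid synthesis, measured 134, 132 and 145 CPM in the Viperin libraries and 125, 136 and 130.1 CPM in the Viperin + Insulin libraries, with overlapping groups (adjusted p = 0.432).

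Secreted factors of vessels and hormone action rose by more than the median of 0.24 of the genes called higher. VEGFA, the vascular endothelial growth factor (ENSG00000112715.23, chromosome 6, 43770184 to 43786487), measured 46.3, 44.3 and 49.1 CPM in the Viperin libraries and 61.5, 59.9 and 66.6 CPM in the Viperin + Insulin libraries (log2 fold change 0.43 ± 0.05, adjusted p = 2.02e-09). ADM, the vasodilator peptide adrenomedullin, measured 58.5, 52.1 and 56.4 CPM in the Viperin libraries and 83.6, 78.4 and 72.9 CPM in the Viperin + Insulin libraries (log2 fold change 0.49 ± 0.05, adjusted p = 7.05e-09). For both, the lowest treated library was above the highest vehicle library. IGFBP5, which binds IGFs, rose from 57.8 ± 3.33 to 77.5 ± 1.88 CPM (0.42 ± 0.05), and STC1, a secreted glycoprotein, from 20.1 ± 2.06 to 27.4 ± 1.52 CPM (0.44 ± 0.06). Of 34 HIF target genes 5 rose and 3 fell. HIF1A (0.16), DDIT4 and EGLN3, a HIF prolyl hydroxylase (0.71, adjusted p = 0.0153), also rose, and NDRG1 (-0.25 ± 0.04), BNIP3L (-0.13) and MXI1 fell. HIF1A lost its call without Viperin library 2 (adjusted p = 0.0788), where 3 of the 5 were left.

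Matrix genes fell more often than they rose, 13 against 3 of 85 (median −0.04). CCDC80, a secreted matrix protein, measured 825, 865 and 796 CPM in the Viperin libraries and 615, 628 and 646 CPM in the Viperin + Insulin libraries (log2 fold change -0.40 ± 0.04, adjusted p = 5.42e-11). COL8A1, a short-chain collagen, fell by 0.43 ± 0.06, LTBP2, LTBP3 and LTBP4, which hold latent TGF-beta in the matrix or resemble those that do, by 0.41 ± 0.07, 0.30 ± 0.05 and 0.22 ± 0.05, and FBLN1 by 0.30 ± 0.06. SPARC (0.27 ± 0.04), TNC (tenascin C, 0.23 ± 0.04) and LOXL2, a collagen cross-linking enzyme (0.22 ± 0.04), were the 3 that rose. With limma-voom the adjusted p of SPARC was 0.0216. Of the 13, 9 passed whichever library was left out, and 16 fell and 3 rose in Control cells. MMP2, a gelatinase, fell from 22.4 ± 1.498 to 15.9 ± 1.18 CPM (log2 fold change -0.49 ± 0.07, adjusted p = 7.12e-07), and among 39 proteases and inhibitors of its kind 2 fell and 3 rose. Without Viperin library 2, 1 rose, without Viperin library 3, 1 fell, and without Viperin + Insulin library 3 there was 1 each way.

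Among adhesion receptors, complement genes and lysosomal genes, 7.89%, 22.7% and 4.76% of measured members fell, against 2.39% of all genes. Of the adhesion receptors 5.26% rose, against 2.17% of all genes. CD44, the hyaluronan receptor, measured 1524, 1458 and 1498 CPM in the Viperin libraries and 1206, 1177 and 1258 CPM in the Viperin + Insulin libraries (log2 fold change -0.30 ± 0.04, adjusted p = 6.28e-08). With limma-voom the adjusted p of CD44 was 0.0108, which misses the threshold of 0.001. ITGB4, an integrin of hemidesmosomes, fell by 0.35 ± 0.06 and NCAM1 by 0.32 ± 0.04, so that 3 of 38 adhesion genes fell and 2 rose. Of the 2, PVR and CDH6, both lost their calls without Viperin library 1 or 2 or Viperin + Insulin library 1 (adjusted p 0.0648 to 0.157), and CDH6 without Viperin + Insulin library 2 (adjusted p = 0.0776). SERPING1, the inhibitor of complement C1, measured 32.3, 33.7 and 32.9 CPM in the Viperin libraries and 23.5, 24.1 and 22.6 CPM in the Viperin + Insulin libraries (log2 fold change -0.50 ± 0.06, adjusted p = 9.2e-09), with the groups apart. Of 22 complement genes 5 fell and none rose, and VTN (-0.52) and C5 (-0.49) lost their calls without Viperin library 3 (VTN, adjusted p = 0.0556) and without Viperin library 2 or Viperin + Insulin library 2 (C5, adjusted p = 0.0561 and 0.112). CTSF, a lysosomal protease, fell from 35.8 ± 2.800 to 24.7 ± 1.23 CPM (-0.53 ± 0.06), CTSB by 0.21 ± 0.04 and TPP1 by 0.17 ± 0.04, 3 of 63 lysosomal genes with none higher. There were 5 lower without Viperin library 1, and 1 or 2 higher without any one of the 3 Control libraries or Viperin + Insulin library 2. In the autophagy list 6 of 46 fell, among them ULK2 (-0.27 ± 0.06), NBR1 (-0.20 ± 0.04) and OPTN (-0.19 ± 0.04), and 2 rose (1 without Viperin library 1 or 3 or Viperin + Insulin library 1 or 3).

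The deepest falls were in lipid mediator genes of low level. CYSLTR2, a receptor for cysteinyl leukotrienes (ENSG00000152207.7, chromosome 13, 48653711 to 48711226), measured 6.39, 6.003 and 5.63 CPM in the Viperin libraries and 2.05, 1.46 and 2.21 CPM in the Viperin + Insulin libraries (log2 fold change -1.61 ± 0.14, adjusted p = 3.06e-13). ALOX15, a lipoxygenase, measured 2.39, 3.31 and 2.97 CPM in the Viperin libraries and 0.92, 1.21 and 0.552 CPM in the Viperin + Insulin libraries (log2 fold change -1.67 ± 0.23, adjusted p = 1.55e-07). PTGES, a prostaglandin E synthase, fell from 14.1 ± 0.761 to 9.66 ± 1.01 CPM (-0.55 ± 0.08). These 3 passed whichever library was left out. The other 28 of 31 measured genes of the pathway did not pass as lower, and 15 of the 31, these 3 included, had a negative log2 fold change. Only CBR1 passed as higher (0.14), and it lost its call without any one of Viperin libraries 1 and 2 or Viperin + Insulin libraries 1, 2 and 3 (adjusted p 0.0608 to 0.173).

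Few interferon and inflammation genes passed the test in these cells. Of 63 interferon-stimulated genes, GBP2 (-0.48 ± 0.06), HERC5 (-0.30 ± 0.07) and IFITM3 (-0.14) fell and IFIT1 rose (0.24, adjusted p = 0.0234). GBP2 and HERC5 kept their calls whichever library was left out. IFIT1 lost its call without Control library 3, Viperin library 2 or 3, or Viperin + Insulin library 1 or 2 (adjusted p 0.0608 to 0.134), and IFITM3 without Viperin library 1 or 2 or Viperin + Insulin library 1 or 3 (0.12 to 0.23). Of 41 NF-kB, cytokine and chemokine genes, CXCL12 (0.20), NFKBIA (0.24) and CCL2 (0.45) rose and none fell, and each lost its call without at least Viperin + Insulin library 1 (adjusted p 0.0616, 0.195 and 0.0788). Without Control library 1 or 2, 1 of the 41 fell.

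Markers of the cells were examined for the identity of the line. The keratin genes KRT8 (1199 ± 23.1 CPM in Viperin cells) and KRT18 (793 ± 30.5 CPM) were abundant, but the epithelial adhesion genes CDH1 (1.31 ± 0.0872 CPM) and EPCAM (0.428 ± 0.156 CPM) were near the floor and GRHL2 was at 0, while the mesenchymal filament gene VIM stood at 1513 ± 35.00 CPM. Summed levels of 20 measured epithelial markers were 2891 to 2985 CPM in Viperin and 2997 to 3120 CPM in Viperin + Insulin libraries. The sums did not overlap, as the groups did not in 21.1% of all genes. KRT8 and KRT18 made up most of each sum, and 12 members had a positive and 8 a negative log2 fold change. Of the members KRT8 rose (0.13) and JUP, plakoglobin, fell (-0.30). KRT8 lost its call without Viperin library 1 or 2 or Viperin + Insulin library 1 or 2 (adjusted p 0.0537 to 0.131). Summed stromal markers were 6790 to 6960 and 6659 to 6936 CPM, with PDGFRB (-0.20) and MME (-0.16) lower, of which 1 was left without Viperin library 1 or 3 or Viperin + Insulin library 2, and 4 members were lower without Control library 1. Leukocyte markers summed to 6.73 to 8.32 and 7.35 to 7.68 CPM with 5 of 18 at 0, endothelial markers to 16.7 to 20.2 and 19.1 to 20.9 CPM, and erythroid markers to at most 0.297 CPM, and none of their measured members passed. In these bulk libraries fewer cells of a kind and less RNA per cell cannot be told apart.

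Transcripts of the mitochondrial genome were lower in most members without passing the test. Of 15 measured genes 1 fell, MT-CO2 (-0.23 ± 0.05, adjusted p = 0.0183), and the list's median was −0.21. The count was 0 without Viperin + Insulin library 1 or 2, 9 without Control library 3, 3 without Control library 1 or Viperin library 3 and 2 without Viperin + Insulin library 3, and from 0 with limma-voom to 7 with only the 2 groups in the fit. In Control cells 2 members fell and the median was −0.29. Copies of these genes in the nuclear genome can take or lose reads. Of such copies, MTND2P28 and MTATP6P1 were among the 256 genes called in Viperin cells. They kept their calls in 9 and 7 of the 12 fits that leave out 1 library.

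The insulin response of Viperin cells was then set beside that of Control cells, which shares no library with it but the same fit and estimate of the spread. Over all genes, 2.53% were higher and 2.96% lower in Control cells at an adjusted p under 0.05 (edgeR). The share of all genes with the same sign in both is not given here. Of the 94 genes called higher in Viperin cells, 91 moved the same way in Control cells and 63 also had an adjusted p under 0.05 there, with a median log2 fold change of 0.18. Of the 162 called lower, 161 had the same sign and 142 passed in Control cells, with a median of −0.28. These genes were selected on the Viperin libraries, so that their changes are larger there by selection, and no order of the medians is read from it. The genes of opposite sign were TNC, BDNF, PAX8-AS1 and an unnamed gene (ENSG00000267904.1).

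**Figure D4:**
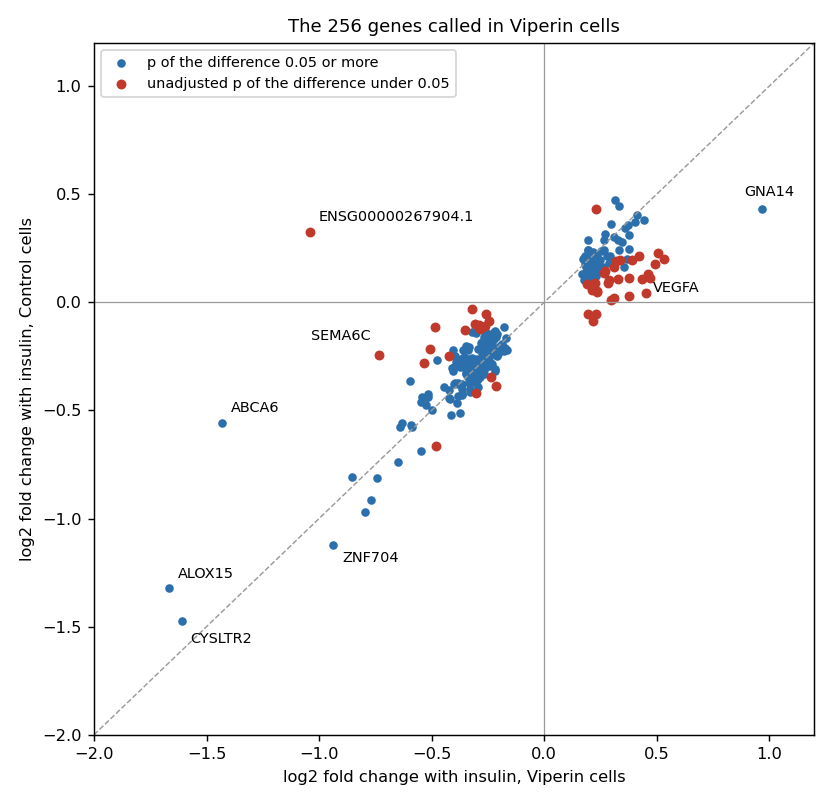
Log2 fold change with insulin in Control cells (vertical) against that in Viperin cells (horizontal) for the 256 genes called in Viperin cells, with the dashed line of equal change and, in red, genes with an unadjusted p under 0.05 for the difference. Of the 94 higher genes 91 lie above 0 on the vertical axis, and of the 162 lower genes 161 lie below 0. No difference passed at an adjusted p under 0.05.

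In the difference of the insulin responses (Viperin less Control cells), no gene passed the test at 0.05 after adjustment with edgeR, where the smallest value was 0.0532. Of the 23041 genes tested, 1297 had an unadjusted p under 0.05 with edgeR, beside 865 with DESeq2 and 1312 with limma-voom. A share of about 0.05 of genes passes this cut where nothing differs, so no difference is read from these counts. With each of these tools, 0 passed adjustment at 0.001. Without single libraries, 1 gene passed 0.001 when Control library 1 was left out, 3 without Control library 3, 5 without Insulin library 1 and 1 without Viperin library 3. VEGFA was among the genes with the smallest p. Its levels were 52.7, 49.6 and 44.7 CPM in Control and 52.9, 53.05 and 52.3 CPM in Insulin libraries, which overlap, beside the rise in Viperin cells given above (a difference of 0.32 ± 0.07 on the log2 scale, unadjusted p = 2.22e-05, adjusted p = 0.0532). ATP1B1 measured 99.05, 93.5 and 86.4 CPM in Control and 103, 97.7 and 100.4 CPM in Insulin libraries (a difference of 0.26 ± 0.06 on the log2 scale, unadjusted p = 3.5e-05, adjusted p = 0.0673). ADM measured 58.9, 54.3 and 61.2 and 70.2, 63.9 and 63.2 CPM there (a difference of 0.31 ± 0.07 on the log2 scale, unadjusted p = 0.000111, adjusted p = 0.149). Each of the 3 had a larger fitted rise in Viperin cells, and none passed the adjustment. They were called in Viperin cells and taken up here after their values were seen, so the selection itself favours a larger rise there.

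The rule for the smallest p of the difference gave 5 genes with the larger value in Viperin cells, TNC, MRPS6, BDNF, NADK2 and RPL26. TNC, a matrix glycoprotein, measured 156, 155 and 158 CPM in the Viperin libraries and 189.6, 176 and 185 CPM in the Viperin + Insulin libraries, and 172, 164 and 163 CPM in Control and 173, 156 and 151 CPM in Insulin libraries (a difference of 0.29 ± 0.06 on the log2 scale, unadjusted p = 3.3e-06, adjusted p = 0.0532). NADK2, which makes mitochondrial NADP, measured 65.3, 61.8 and 60.6 CPM in the Viperin libraries and 77.8, 74.6 and 78.1 CPM in the Viperin + Insulin libraries, and 66.7, 64.4 and 62.8 CPM in Control and 64.7, 65.2 and 65.2 CPM in Insulin libraries (a difference of 0.29 ± 0.06 on the log2 scale, unadjusted p = 1.42e-05, adjusted p = 0.0532). In both, the Viperin + Insulin libraries were the highest of the 12. BDNF, a neurotrophin, changed by 0.22 in Viperin and -0.09 in Control cells. MRPS6, of the mitochondrial ribosome, changed by 0.31 and 0.02, and it shares its strand and region with SLC5A3, so that its reads are uncertain. In the other direction stood SLC22A3, an organic cation transporter (-0.34 in Viperin and 0.55 in Control cells), CPT1A, the gate of fatty acid entry into mitochondria (-0.19 and 0.09), XPNPEP3 (-0.17 and 0.34), ALDH1A3, which makes retinoic acid (-0.26 and -0.05), and COL14A1 (-0.18 and 1.11).

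**Figure D5:**
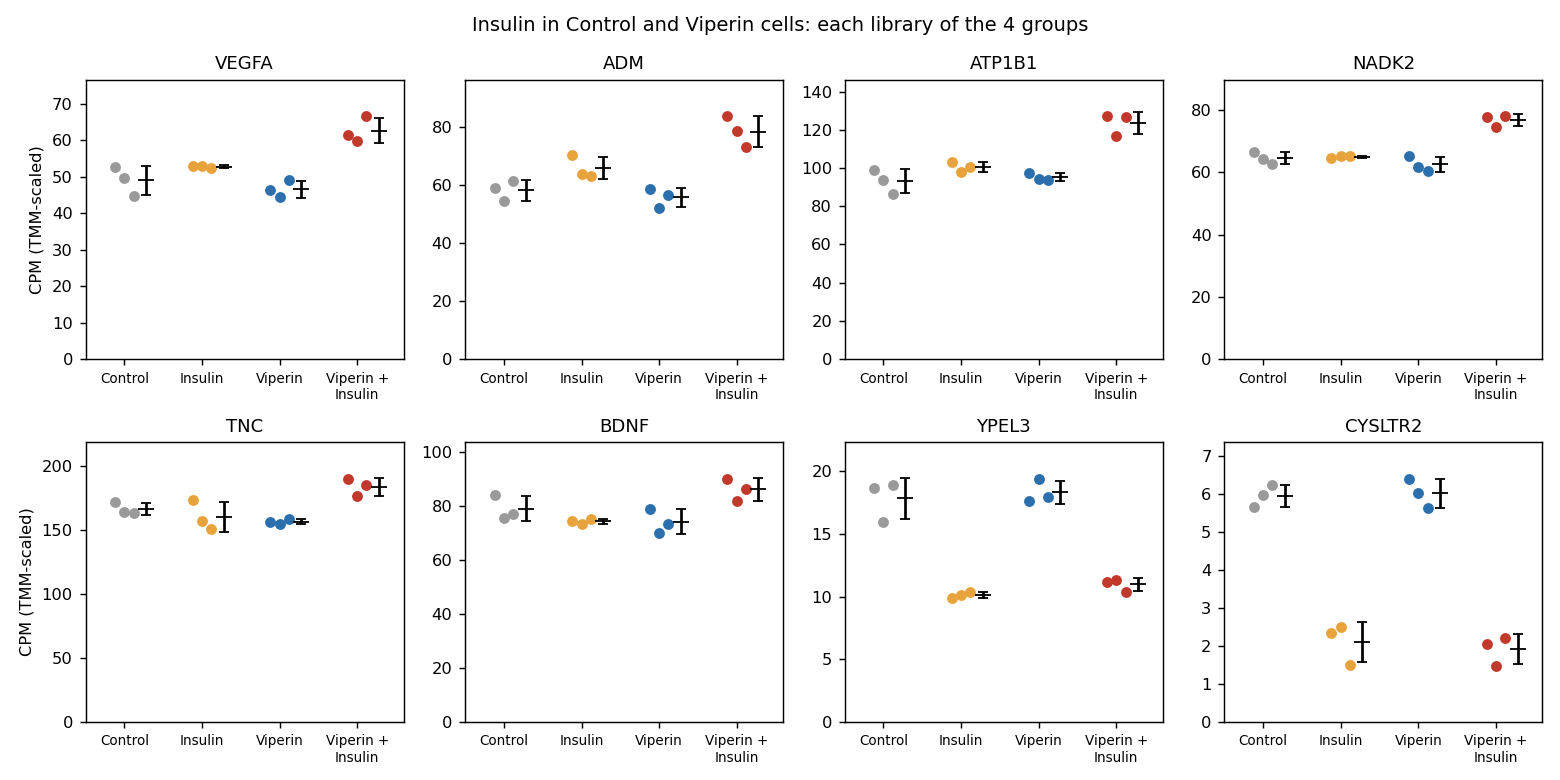
CPM of 8 genes in each library of the Control, Insulin, Viperin and Viperin + Insulin groups (3 each), with the mean ± SD beside the points and vertical axes from 0. All 8 were called in Viperin cells and picked after their values were seen, which favours larger changes there. The genes named in the text for the other direction of the difference are not shown. VEGFA, ADM, ATP1B1, NADK2, TNC and BDNF have a larger fitted change with insulin in Viperin than in Control cells (adjusted p of the difference 0.0532 to 0.149, none past the threshold), while YPEL3 and CYSLTR2 fall in both kinds of cell, by 0.74 and 1.61 in Viperin cells and by 0.81 and 1.47 in Control cells on the log2 scale.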

How the data were processed

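Paired-end mRNA-seq gave 12 libraries of 12Z cells, 3 in each group, described in the methods as independent experiments. Per the labels and the methods, the authors used cutadapt and Trim Galore for trimming, FastQC for quality and STAR for both alignment to hg38 and counting of read pairs per gene. The sources used here give no versions, and the annotation named there is a mouse GENCODE release although the gene IDs are human. The deposited values are raw counts per gene, unstranded and by strand, with no normalization or pooling. As in the methods, the reverse-strand column was taken (60617 genes), and the 4 head lines stayed out of library sizes. Reads mapped to more than 1 place were 9.44% to 13.9% and reads assigned to no gene 20.6% to 24.9%. Symbols for 60357 IDs came from GENCODE release 44. Depth limits small changes in genes of few counts, and intervals cover counting error and the spread between libraries only.

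A filter kept the 23041 genes averaging 1 count or more over the libraries. TMM scaling was followed by a fit of 4 group means over all 12 libraries with the robust quasi-likelihood method of edgeR 4.0.16 (R 4.3.3, prior count 2), with Benjamini-Hochberg adjustment over all genes and two-sided tests. The threshold on the adjusted p was 0.001 for calls over all genes and 0.05 for list members. CPM are counts scaled to a common library size by TMM, and ± is the SD of 3 libraries for CPM and the standard error for log2 fold changes. The authors used DESeq2 with weighted p-values, which were not computed here. Tables and figures were made with Python 3.11.15, pandas 2.3.3, numpy 2.4.6 and matplotlib 3.10.9. The scripts were tested on simulated data in which known genes change.

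The members and gene lists were chosen with earlier results of these data known, and no list was tested as a set. Named genes are the 15 higher and 15 lower called genes with the smallest p and groups apart, the 10 with the largest change each way at 1 CPM or more, up to 6 members of each list with the smallest p, the genes RSAD2, INSR, IGF1R, IRS1, IRS2, FOXO1, FOXO3, ATF4, MYC and SREBF1, and the 5 smallest p each way of the difference (187 genes). Members outside that rule were named after their values were seen, as was which genes were described at length. Values of some genes that the rule names are not reported here, and counts include them. Alternatives were limma-voom (limma 3.58.1), DESeq2 1.42.0 (with its independent filtering and without), RLE size factors, library sizes without RSAD2 and the mitochondrial genes, unstranded counts, filterByExpr or no filter, only the groups compared, a replicate block, thresholds of 0.01 and 0.05, and each library left out, its group then keeping 2 libraries assumed to vary like the others. Leaving out Control library 1 and Viperin library 3 together, which had the highest shares of reads mapped to more than 1 place, was added after the data were seen. Promoters and their sequences are from RefSeq (GRCh38.p14), and motifs were searched on both strands of 300 bases.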

Additional observations from a re-analysis of the deposited data

How the results depend on the processing

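For the Insulin response in Viperin cells, the 256 calls became 502 with only the groups compared, 595 at an adjusted p under 0.01 and 1050 under 0.05, and 137 (without Viperin + Insulin library 1) to 420 (without Control library 3) with 1 library left out; the other alternatives gave 199 to 378 calls. For the Insulin response in Control cells, 272 calls became 427 with no filter, 412 without both Control library 1 and Viperin library 3, 644 at 0.01, 1265 at 0.05 and 122 (without Insulin library 3) to 346 (without Control library 1) with 1 library left out, and 130 without Insulin library 2. For the Difference of the insulin responses, 0 calls became 4 with no filter, 3 without both of those libraries and 0 to 5 with 1 library left out. The cause was not tested. RSAD2 in Viperin cells had log2 fold changes of −0.28 (without Viperin library 3) to 0.078 (without Viperin library 2, where its sign changed, adjusted p = 0.936), and passed under no alternative. Of the 178 named genes called, 95 lost the call in at least 1 alternative and none changed direction. The replicate block gave 261, 284 and 0 calls, 246 of the 261 shared with the 256. Deviations from group means of same-numbered libraries correlated at −0.06, −0.04 and −0.08 between Viperin and Viperin + Insulin and at −0.01, 0.05 and −0.01 between Control and Insulin, and not every library correlated best with its own number, so the numbers were not taken to pair the libraries. Depth limits calls in genes of few counts.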

Other observations

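The remaining gene lists held few members that passed in Viperin cells, beside 2.17% of all genes higher and 2.39% lower. Of 35 NRF2 and glutathione genes, GCLM, which limits glutathione synthesis, and ME1 rose by 0.23 and 0.17 on the log2 scale, and GPX4 and GSTP1 fell by 0.18 and 0.15. Of 40 genes of ERK feedback, CCND1 rose and ETV1 fell (−0.37). Of 12 IGF binding proteins and relatives, IGFBP5 and STC1 rose and IGFBP6 fell (−0.21). Of 26 YAP/TAZ genes, F3, the tissue factor that starts coagulation, rose by 0.32 and AMOTL1 fell by 0.12. Of 40 TGF-beta genes SMAD1 fell (−0.24), of 23 clock genes TEF rose (0.24), of 8 pentose phosphate genes PGLS fell (−0.25), of 23 glycogen genes PPP1R3E fell (−0.30), and of 10 genes of MYC and its partners ODC1 rose and MXI1 fell. Several of these counts moved by over 1.5 times with 1 library left out. In the ERK list, lower members were 5 without Insulin library 1, 3 without Control library 1, Insulin library 2 or Viperin + Insulin library 3, 2 without Control library 2 or 3 or Viperin library 2, and 7 with only the groups compared, and higher members were 3 without Insulin library 1 and 2 without Control library 1, Insulin library 2 or Viperin library 3. In the NRF2 and glutathione list, 5 fell without Control library 1 and 4 without Insulin library 1, with DESeq2 or with the replicate block, and 1 rose without Viperin library 1 or 2 or Viperin + Insulin library 1 or 3, each of which took the call of ME1 (adjusted p 0.0793 to 0.235). In the TGF-beta list 3 fell without Control library 1 or 3 and 2 without Viperin library 3, and 1 rose without Control library 1 or Insulin library 1 or 2. AMOTL1 was lost without Insulin library 3, Viperin library 1 or 3 or any Viperin + Insulin library (adjusted p 0.0584 to 0.22), and with Control library 1 left out 3 YAP/TAZ genes were lower, against 2 with Viperin library 2 left out. IGFBP6 was lost without Viperin library 2 or Viperin + Insulin library 2 (adjusted p 0.0706 and 0.0753), TEF without Viperin library 1 or 2 (0.0578 and 0.0584), and PPP1R3E without Viperin library 3 or Viperin + Insulin library 2 (0.0794 and 0.15). In the list of MYC and its partners 2 fell without any one of the Control libraries or Viperin library 1, in the pentose phosphate list 2 fell without Viperin library 1, and 1 clock gene fell without Control library 1.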
